A study of Rattus norvegicus with 15 samples.

Results

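The genes of the platelet-derived growth factor (PDGF) family were followed through the differentiation of H9c2 cells with and without all-trans retinoic acid (RA). The family was taken as the ligand genes Pdgfa, Pdgfb, Pdgfc and Pdgfd and the receptor genes Pdgfra and Pdgfrb, matched by symbol in a count table of 11574 rat genes. Of these 6 genes, 4 were in the table, namely 3 of the 4 ligands (Pdgfa, Pdgfb and Pdgfc) and 1 of the 2 receptors (Pdgfrb). Pdgfd and Pdgfra were not among the 11574 genes, a set limited to genes whose counts over all 15 libraries exceed 20 in sum, and no level is given for them here. Pdgfb mRNA was higher and Pdgfc mRNA lower with RA than without it, while the change of Pdgfrb missed the threshold. Pdgfa mRNA was also higher with RA, but its call lay close to the threshold and was lost in several fits. At day 14 alone the change of Pdgfa was not called, and its mean with RA was not above that of T0 at either day.

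PDGFs are secreted as disulfide-linked dimers that bind and dimerize receptor tyrosine kinases at the cell surface, and the receptors then signal through phosphatidylinositol 3-kinase, phospholipase C gamma and the Ras to ERK cascade. The products of Pdgfa and Pdgfb are the classical A and B chains, whereas those of Pdgfc and Pdgfd carry a CUB domain that proteases must remove before the ligand can bind. Receptor alpha takes the A, B and C chains and receptor beta takes mainly the B and D chains. In muscle and heart the family is known for driving the growth and migration of mesenchymal cells, and the B chain with receptor beta for the recruitment of pericytes and smooth muscle cells to vessels.

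RNA was measured in 15 cultures of H9c2, an established wild-type myoblast line from embryonic rat heart, with 3 cultures in each of 5 groups. The T0 cultures were collected 24 h after seeding in medium with 10% fetal bovine serum. The T7-RA and T14-RA cultures were collected at day 7 and day 14 in medium with 1% serum and no RA. The T7+RA and T14+RA cultures had the same low serum and received 1 µM RA every day. Since T0 preceded the change of serum, time in culture and serum cannot be told apart in any comparison with T0. RA was dissolved in DMSO, and the sources used here do not say whether the cultures without RA received DMSO.

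Counts per library ranged from 508397 to 1030820 with a median of 666344. The T0 libraries differed more from each other than those of the other groups, with a chi-square per gene of 2.06 to 3.09 between T0 replicates and 1.07 to 2.04 between replicates elsewhere. Of 8 listed retinoid response genes 3 were in the table, and those 3 rose with RA (6.39% of all genes were called), Cyp26b1 (an RA-degrading enzyme), Dhrs3 (a retinal reductase) and Tgm2 (transglutaminase 2). Of 12 myoblast and skeletal muscle markers, 8 were in the table, and their summed level was 861 to 889 CPM (counts scaled to equal library size) at T0, 2319 to 2603 in T7-RA, 6370 to 6587 in T14-RA, 1574 to 1738 in T7+RA and 2695 to 3102 in T14+RA. Most of the higher sum was Myh3 (embryonic myosin heavy chain), with a mean of 40.8 CPM at T0 and 5056 in T14-RA, whereas Cdh15 (M-cadherin) had means of 638 and 324 CPM and Myod1 of 115 and 80.2. For the T14 term (day 14 against T0, adjusted for RA) 6 of the 8 were called higher, namely Myh3, Myog, Des, Chrna1, Mymk and Mymx. Cdh15 was called lower and Myod1 was not called (edgeR adjusted p = 0.00689), against 17.3% of all genes called. Of 12 cardiomyocyte markers, 4 were in the table, and Nkx2-5, Tbx5, Myh6, Myh7, Myl7, Tnni3, Nppa and Nppb were not among the genes analysed. The 4 present (Gata4, Hand2, Mef2c and Tnnt2) summed to 156 to 170 CPM at T0, 429 to 489 in T7-RA, 855 to 971 in T14-RA, 360 to 383 in T7+RA and 689 to 754 in T14+RA. Most of that sum at the later days was Tnnt2 (cardiac troponin T), with a mean of 59.6 CPM at T0 and 754 in T14-RA. For the T14 term Tnnt2 was called higher and the other 3 were not called, against 17.3% of all genes called. These markers thus gave no clear match to the heart label. Of 8 endothelial markers only Tek was in the table, at no more than 6.29 CPM, and of 6 macrophage markers only Cd14, at 10.5 to 58.1 CPM. Of 9 fibroblast markers 6 were in the table, with a sum, mostly of Col1a1, of 28816 to 42073 CPM at T0, 27561 to 31181 in T7-RA, 28938 to 29369 in T14-RA, 26573 to 29864 in T7+RA and 23290 to 29481 in T14+RA. For the RA term 1 of the 6 was called higher (Dcn) and 4 lower (Postn, Lum, Col3a1 and Thy1), against 6.39% of all genes called in either direction, with a median log2 change of -0.48 beside -0.01 over all genes. Postn (periostin, a matrix protein) fell by 5.46 (edgeR adjusted p = 1.18e-30), with means of 744 CPM in T7-RA and 18.9 in T7+RA. The part of these markers in the values of the PDGF genes was not tested.

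Each gene was scaled as CPM with TMM factors, and levels were compared between genes as CPM per kilobase of the gene size deposited with the counts. Pdgfrb (ENSRNOG00000018461, band 18q12.1) was the most abundant, with 5675 counts in all and a mean of 102 CPM per kilobase. Pdgfa (ENSRNOG00000001312, band 12q11) followed with 908 counts and 66.2 CPM per kilobase, then Pdgfc (ENSRNOG00000010695, band 2q33) with 701 counts and 26.1 CPM per kilobase, and Pdgfb (ENSRNOG00000017197, band 7q34) with 357 counts and 16.2 CPM per kilobase. The receptor was thus higher per length than each of the 3 ligands in the mean over the 15 libraries, and Pdgfb was the ligand with the fewest counts in sum. In T7+RA the order turned, with 162 counts of Pdgfb against 118 of Pdgfc. A single library held between 4 and 58 counts of Pdgfb, 23 and 78 of Pdgfc, 34 and 99 of Pdgfa and 268 and 577 of Pdgfrb, so the error of Pdgfb was the widest. In cultures measured in bulk, fewer cells that express a gene and less RNA per cell cannot be told apart.

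**Figure D1:**
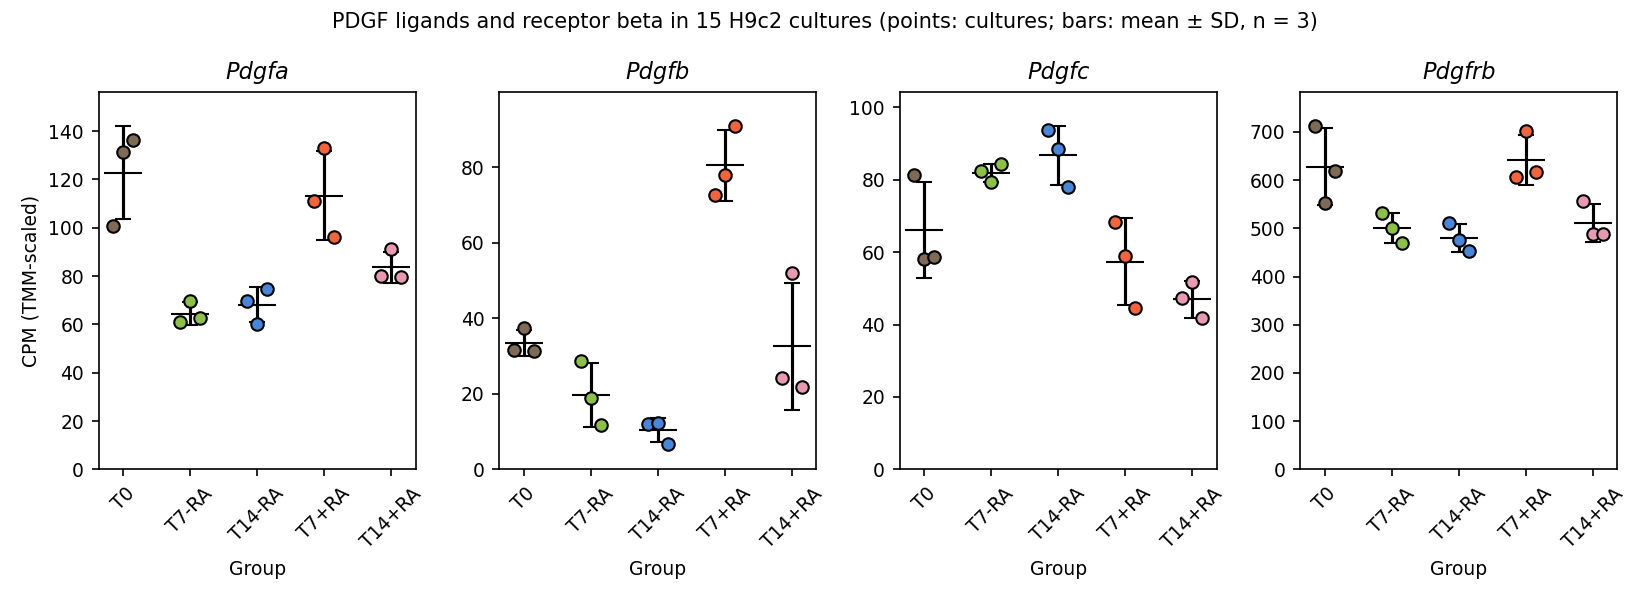
Level of Pdgfa, Pdgfb, Pdgfc and Pdgfrb in each culture, in TMM-scaled CPM on the vertical axes (each starting at 0), by group on the horizontal axes; points are cultures and bars are the mean ± SD of 3 cultures. The 3 T7+RA cultures of Pdgfb, between 72.7 and 90.8 CPM, lie above all 12 other cultures.

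Promoters of the 3 ligands are shown because Pdgfa and Pdgfb moved one way with RA and Pdgfc the other, and RA acts through nuclear receptors that bind repeats of letters such as AGGTCA or AGTTCA. The sequences are from RefSeq (build GRCr8, not the build Rnor_6.0 of the counts) and cover 250 bases before to 50 bases after the annotated start of each gene. Capitals mark each match, on either strand, to these strings or to GGGCGG, the core of the GC box. Pdgfb lies at chr7:113438294-113438593 on the minus strand, Pdgfa at chr12:20759116-20759415 on the plus strand and Pdgfc at chr2:168614918-168615217 on the plus strand.
Pdgfb: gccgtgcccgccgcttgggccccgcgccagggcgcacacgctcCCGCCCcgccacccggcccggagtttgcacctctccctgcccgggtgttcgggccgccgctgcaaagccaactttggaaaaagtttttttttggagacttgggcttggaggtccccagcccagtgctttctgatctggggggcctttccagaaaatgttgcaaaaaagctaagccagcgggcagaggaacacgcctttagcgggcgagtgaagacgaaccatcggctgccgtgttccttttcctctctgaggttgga
Pdgfa: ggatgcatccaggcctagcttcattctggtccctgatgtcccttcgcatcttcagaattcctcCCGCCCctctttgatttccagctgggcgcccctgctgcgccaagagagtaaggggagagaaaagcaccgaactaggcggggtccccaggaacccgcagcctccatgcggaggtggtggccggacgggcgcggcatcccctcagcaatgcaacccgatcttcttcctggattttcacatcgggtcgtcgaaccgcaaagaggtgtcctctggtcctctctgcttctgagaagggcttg
Pdgfc: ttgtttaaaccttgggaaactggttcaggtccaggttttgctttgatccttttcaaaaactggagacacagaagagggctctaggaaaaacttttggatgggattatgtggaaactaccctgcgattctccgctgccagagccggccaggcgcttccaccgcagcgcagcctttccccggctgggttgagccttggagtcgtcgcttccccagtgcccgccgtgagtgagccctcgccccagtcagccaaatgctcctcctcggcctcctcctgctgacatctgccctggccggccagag

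The Pdgfb window held 1 match to GGGCGG, read on the opposite strand, with its first printed base at -207 from the gene start. The Pdgfa window held 1 match to GGGCGG, also on the opposite strand, with its first printed base at -187, and the Pdgfc window held none. Of 33469 rat promoters of the same length, 33.1% held GGGCGG. None of the 3 windows held AGGTCA or AGTTCA, and 27.9% of all promoters held one or the other. A match is a string of letters and not a binding site, and the absence of these letters from 300 bases says nothing about sites elsewhere. Variants of these strings were not searched for. The GC content of the windows was 62.0% for Pdgfb, 60.0% for Pdgfa and 58.0% for Pdgfc, against a median of 51.7% over all promoters. The tables used here gave no promoter for Pdgfrb.

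Changes were tested in edgeR with an additive model of T7, T14 and RA terms. The T7 and T14 terms are the changes from T0 adjusted for RA, the RA term is the change with RA averaged over both days, and genes with a Benjamini-Hochberg adjusted p under 0.001 over all 11574 genes were called. For the RA term, 3 of the 4 PDGF genes were called, with Pdgfb and Pdgfa higher and Pdgfc lower, and 6.39% of all genes were called in either direction. In the T14 term, 3 of 4 were called, all lower (Pdgfb, Pdgfa and Pdgfrb), against 17.3% of all genes in either direction and 8.85% lower. For the T7 term, 1 of 4 was called (Pdgfa, lower), against 8.73% of all genes. The median log2 change of the 4 genes was -0.72 for the T14 term, 0.40 for the RA term and -0.45 for the T7 term, beside 0.05, -0.01 and 0.02 over all genes. Scaling by library size alone moved the median change of all genes to 0.13 for T7 and 0.15 for T14, and the split of called genes from 980 higher and 1024 lower to 1221 and 844 for T14 and from 496 and 514 to 648 and 358 for T7. Groups of the same day with and without RA did not overlap for 4 of 4 PDGF genes at day 7 (24.4% of all genes) and 3 of 4 at day 14 (27.2%). Cultures without RA did not overlap those of T0 for 3 of 4 at day 7 (33.3%) and 3 of 4 at day 14 (40.6%). The number of called members depended on the method for the T7 term, where DESeq2, limma on quantile-normalized values and edgeR scaled by library size alone called 0 of 4, and 3 of 4 had an unadjusted p under 0.05 in edgeR. For the RA term limma-voom and DESeq2 called 2 of 4 and limma on quantile-normalized values 1, and for the T14 term these 3 methods called 3, 3 and 1.

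**Figure D2:**
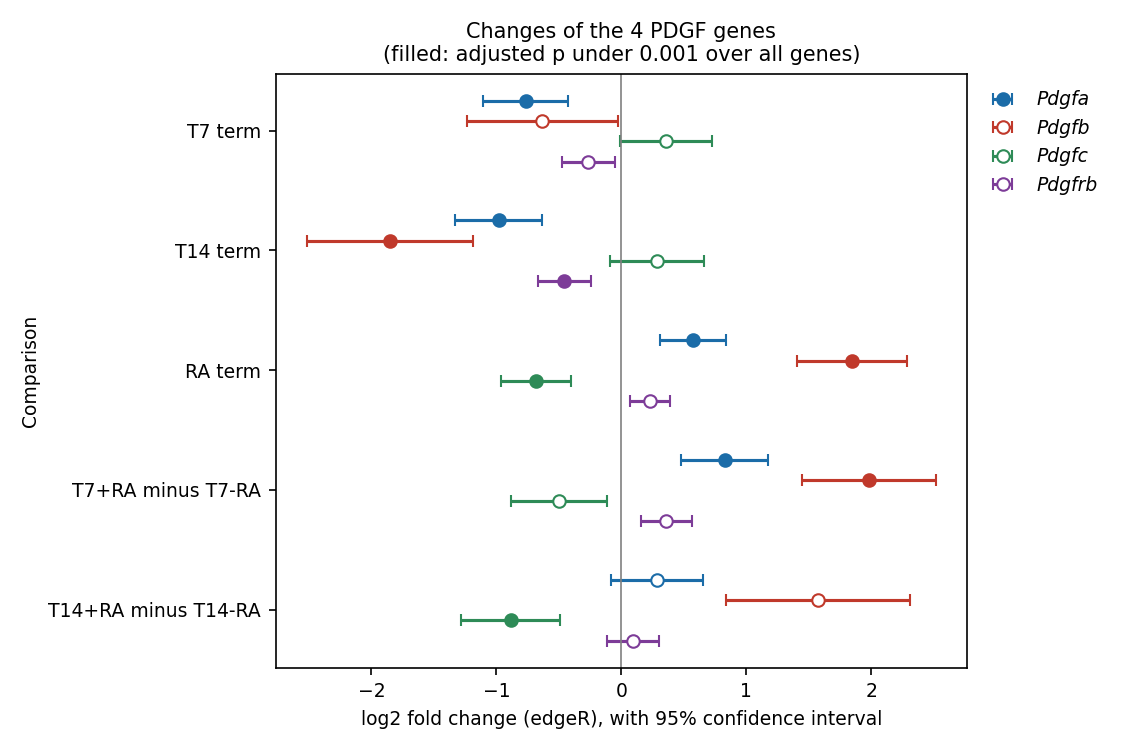
Log2 fold changes of Pdgfa, Pdgfb, Pdgfc and Pdgfrb on the horizontal axis for 5 comparisons on the vertical axis, from edgeR, with 95% confidence intervals as bars; filled points have an adjusted p under 0.001 over all genes. Pdgfb has the largest RA term of the 4 genes, 1.85, and Pdgfc the only RA term below 0, -0.69.

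Pdgfb, which encodes the B chain, showed the largest response to RA of the 4 genes. At T0 the 3 cultures held 31.7, 37.5 and 31.4 CPM of Pdgfb. Without RA they held 28.6, 18.8 and 11.6 CPM at day 7 and 12.0, 12.4 and 6.77 CPM at day 14. The level without RA was thus below every T0 culture at both days, and the cultures of day 7 and day 14 overlapped. With RA, the cultures held 72.7, 77.9 and 90.8 CPM at day 7 and 24.1, 51.9 and 21.8 CPM at day 14. Every culture with RA was above every culture without RA of the same day, and at day 14 with RA 1 culture stood well above the other two. The T7+RA cultures were above all 12 others.

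The group means of Pdgfb were 33.6 ± 3.43 CPM at T0, 19.7 ± 8.54 in T7-RA, 10.4 ± 3.14 in T14-RA, 32.6 ± 16.7 in T14+RA and 80.5 ± 9.35 in T7+RA (SD, n = 3 each). In the order of means, T7+RA stood apart from its neighbour T0, T0 and T14+RA overlapped, T14+RA and T7-RA overlapped, and so did T7-RA and T14-RA. The RA term of Pdgfb was 1.85 on the log2 scale (SE 0.219, edgeR adjusted p = 8.42e-10), a 3.60-fold higher level, which ranked 176 of all genes by p. The change with RA was 1.98 at day 7 (SE 0.267, edgeR adjusted p = 3.7e-08), where 2 of 4 PDGF genes were called against 3.17% of all genes. Limma on quantile-normalized values did not call Pdgfb at day 7 (2.05, adjusted p = 0.00359). The change with RA was 1.58 at day 14 (SE 0.369), where the edgeR adjusted p of 0.00134 missed the threshold of 0.001. Without T0 replicate 2, T14+RA replicate 1 or T14+RA replicate 3 it passed, with changes of 1.57 to 1.82, as it did with a replicate block (1.56, edgeR adjusted p = 0.000888).

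Against T0, the T14 term of Pdgfb was -1.85 (SE 0.332, edgeR adjusted p = 7.76e-06). Without RA, Pdgfb at day 14 was lower than at T0 by a log2 change of -1.65 (edgeR adjusted p = 0.000379), 1 of 2 PDGF genes called in that comparison against 15.7% of all genes. This call was lost without T0 replicate 1 or 2 or any 1 of the T14-RA replicates, with changes of -1.78 to -1.44 and edgeR adjusted p-values up to 0.00523. It was also lost in limma-voom, DESeq2, limma on quantile-normalized values and edgeR on the 2 groups alone, with adjusted p-values of 0.00107 to 0.0026. With RA, Pdgfb at day 7 was above T0 by 1.25 (edgeR adjusted p = 0.000111) and was the only PDGF gene called there, against 10.4% of all genes. DESeq2 and limma on quantile-normalized values called 0 of 4 in that comparison, and limma-voom called 1. At day 14 with RA it differed from T0 by -0.07, with a 95% confidence interval from -0.67 to 0.52. Between day 7 and day 14 with RA, Pdgfb fell by 1.33 on the log2 scale (edgeR adjusted p = 4.6e-05), the only PDGF gene called in that comparison, against 4.67% of all genes. It was not called in DESeq2 (adjusted p = 0.00153) or limma on quantile-normalized values (adjusted p = 0.0305), nor without T7+RA replicate 3 (-1.24, edgeR adjusted p = 0.00116) or T14+RA replicate 1 (-1.09, edgeR adjusted p = 0.00676). The difference between the RA changes of day 14 and day 7 was -0.40 (edgeR adjusted p = 0.913), with a 95% confidence interval from -1.40 to 0.60.

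Pdgfa, which encodes the A chain, fell from T0 in low serum and was higher with RA. The T0 cultures held 100.7, 131.3 and 136.3 CPM of Pdgfa. Without RA they held 60.8, 69.9 and 62.5 CPM at day 7 and 69.7, 60.2 and 74.5 CPM at day 14, and with RA 111.2, 132.9 and 96.0 CPM at day 7 and 80.1, 91.2 and 79.8 CPM at day 14. All 6 cultures without RA were below all 6 cultures with RA and below all 3 at T0. The T7+RA cultures overlapped those of T0, and the T14+RA cultures were below both.

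The group means of Pdgfa were 123 ± 19.3 CPM at T0, 113 ± 18.6 in T7+RA, 83.7 ± 6.49 in T14+RA, 68.1 ± 7.27 in T14-RA and 64.4 ± 4.82 in T7-RA (SD, n = 3 each). The T0 and T7+RA means differed by less than their spread, and so did those of T14-RA and T7-RA. Without RA the log2 change from T0 was -0.91 at day 7 (SE 0.177, edgeR adjusted p = 5.63e-05), where 1 of 4 PDGF genes was called against 8.78% of all genes, and -0.82 at day 14 (SE 0.179, edgeR adjusted p = 0.000181). The call at day 7 was lost without T7-RA replicate 1 (edgeR adjusted p = 0.00107), and that at day 14 without T0 replicate 2 or 3 or T14-RA replicate 1 or 2 (edgeR adjusted p up to 0.00255). Limma on quantile-normalized values made neither call (adjusted p = 0.00421 and 0.00301), and DESeq2 (adjusted p = 0.00137) and scaling by library size alone (adjusted p = 0.00103) lost that at day 14. With RA it was -0.08 at day 7, with a 95% confidence interval from -0.41 to 0.25. At day 14 with RA it was -0.54 (edgeR adjusted p = 0.00921, past 0.05 but not 0.001). The change with RA was 0.83 at day 7 (SE 0.173, edgeR adjusted p = 0.000408), and it was no longer called without any 1 of the T7-RA replicates or T7+RA replicates 1 or 2 (0.69 to 0.89, edgeR adjusted p up to 0.0207), in DESeq2 (adjusted p = 0.0032) or in limma on quantile-normalized values (adjusted p = 0.0183). At day 14 it was 0.29 (SE 0.184, edgeR adjusted p = 0.404). The difference between the RA changes of the 2 days was -0.54, with a 95% confidence interval from -1.05 to -0.03 that was not adjusted for the number of genes, and it missed the threshold after adjustment (edgeR adjusted p = 0.554).

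The RA term of Pdgfa, 0.57 (SE 0.131, edgeR adjusted p = 0.000877), lay close to the threshold. It stayed positive in every fit run, and it was no longer called in limma-voom (adjusted p = 0.00178), DESeq2 (adjusted p = 0.00363), limma on quantile-normalized values (adjusted p = 0.0178), or edgeR scaled by library size alone (adjusted p = 0.00146) or with at least 10 counts in every library (adjusted p = 0.00118). It was also not called without 1 of 8 libraries, with edgeR adjusted p-values up to 0.0116, namely each of the T7-RA and T7+RA libraries, T14-RA replicate 2 and T14+RA replicate 2. The T14 term of Pdgfa was -0.98 (SE 0.173, edgeR adjusted p = 5.38e-06) and the T7 term -0.77 (SE 0.170, edgeR adjusted p = 0.000447). Limma on quantile-normalized values called neither (adjusted p = 0.00113 and 0.00942), and DESeq2 (adjusted p = 0.00122) and scaling by library size alone (adjusted p = 0.00248) did not call the T7 term. Without T0 replicate 2 or 3 or any 1 of the T7-RA replicates the T7 term was not called (edgeR adjusted p up to 0.00582).

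Pdgfc, which encodes the C chain that needs proteolytic activation, was lower with RA. The T0 cultures held 81.4, 58.2 and 58.7 CPM of Pdgfc. Without RA they held 82.3, 79.3 and 84.2 CPM at day 7 and 93.7, 88.6 and 77.9 CPM at day 14, and with RA 68.4, 59.1 and 44.6 CPM at day 7 and 47.3, 51.9 and 41.7 CPM at day 14. All 6 cultures with RA were below all 6 without RA, and of the T0 cultures 1 lay in the range without RA and 2 in the range with RA. The group means were 66.1 ± 13.3 CPM at T0, 81.9 ± 2.50 in T7-RA, 86.7 ± 8.06 in T14-RA, 46.9 ± 5.09 in T14+RA and 57.4 ± 12.0 in T7+RA (SD, n = 3 each). Each group overlapped its neighbours in the order of means, T0 and T7-RA through 1 culture of T0.

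The RA term of Pdgfc was -0.69 (SE 0.140, edgeR adjusted p = 0.000156), a level 1.61-fold lower with RA. At day 14 the change with RA was -0.89 (SE 0.198, edgeR adjusted p = 0.000712), and Pdgfc was the only PDGF gene called there, against 4.81% of all genes. Limma-voom, limma on quantile-normalized values and DESeq2 called 0 of 4 there (adjusted p for Pdgfc 0.00117 to 0.00986), and edgeR with a replicate block called 2, Pdgfc and Pdgfb. The call was also lost without T7-RA replicate 1 or any 1 of the 6 libraries of day 14 in the contrast, with changes of -0.95 to -0.82 and edgeR adjusted p-values up to 0.0135. At day 7 it was -0.50 (SE 0.191, edgeR adjusted p = 0.112). The difference between the 2 days was -0.39 (edgeR adjusted p = 0.778), with a 95% confidence interval from -0.94 to 0.17. The time terms of Pdgfc were 0.36 for T7 (edgeR adjusted p = 0.163) and 0.29 for T14 (edgeR adjusted p = 0.245), neither called. The RA term was not called in limma on quantile-normalized values (adjusted p = 0.00292) or without T14-RA replicate 1, T7+RA replicate 3 or T14+RA replicate 1 (edgeR adjusted p up to 0.0018).

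The make-up of the measured ligand mRNA moved with these changes. Expressed per kilobase, Pdgfa was the largest share of the 3 ligands in every culture, from 49.8% to 72.9%. This order rests on the deposited gene size, for in shares of counts Pdgfc came first without RA, with 49.4% against 38.8% for Pdgfa in T7-RA and 52.4% against 41.3% in T14-RA. Pdgfc was 36.1% ± 2.57 of the ligand total in T7-RA and 38.0% ± 3.34 in T14-RA, against 15.5% ± 2.81 in T7+RA and 19.3% ± 1.34 in T14+RA (SD, n = 3 each). Pdgfb was 10.2% ± 4.19 in T7-RA and 5.42% ± 1.68 in T14-RA, against 26.3% ± 5.20 in T7+RA and 15.3% ± 5.39 in T14+RA (SD, n = 3 each). At T0 the shares were 68.5% for Pdgfa, 19.7% for Pdgfc and 11.8% for Pdgfb. Per length, Pdgfc came before Pdgfb in all 9 cultures of T0, T7-RA and T14-RA and after it in all 3 of T7+RA, and in T14+RA it came before Pdgfb in 2 of 3.

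**Figure D3:**
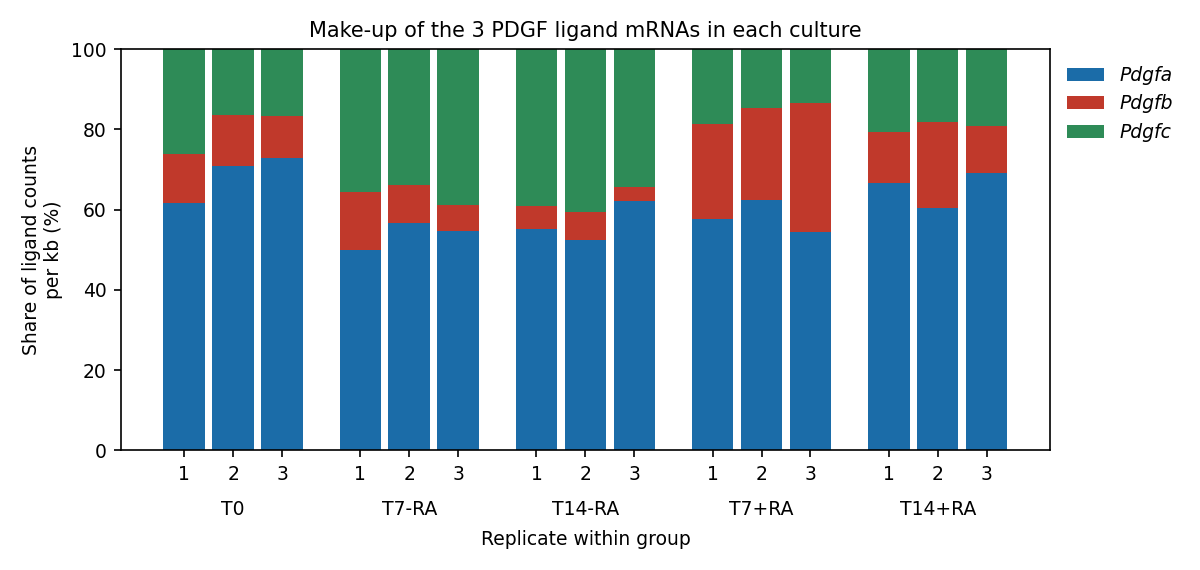
Share of each of the 3 measured ligands (Pdgfa, Pdgfb and Pdgfc) in their summed counts per kilobase, in percent on the vertical axis, for each of the 15 cultures on the horizontal axis, grouped by condition. The Pdgfb band is widest in T7+RA, 22.9% to 32.2%, and the Pdgfc band is widest without RA, 33.8% to 40.7%.

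The ratio of Pdgfb to Pdgfa counts within a library does not depend on scaling between libraries. With a pseudocount of 0.5, the mean log2 ratio was -1.84 ± 0.222 at T0, -1.76 ± 0.647 in T7-RA, -2.66 ± 0.575 in T14-RA, -1.45 ± 0.562 in T14+RA and -0.48 ± 0.360 in T7+RA (SD, n = 3 each). It was higher with RA by 1.24 on average, 2.37-fold, and by 1.28 at day 7 and 1.21 at day 14 (exact permutation test within days, two-sided, p = 0.005, the smallest that its 400 arrangements allow). Both chains can form dimers with each other, and these values are of mRNA only.

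Pdgfrb, which encodes receptor beta, was lower at day 14 than at T0, and its change with RA missed the threshold. The T0 cultures held 711.8, 553.5 and 618.4 CPM of Pdgfrb. Without RA they held 532.0, 499.9 and 469.1 CPM at day 7 and 510.5, 476.4 and 453.8 CPM at day 14, and with RA 607.2, 702.1 and 617.0 CPM at day 7 and 556.6, 488.8 and 487.7 CPM at day 14. The T0 and T7+RA cultures were high and overlapped each other, the other 3 groups were low and overlapped among themselves, and the lowest T0 culture was just under the highest T14+RA culture. The group means were 642 ± 52.2 CPM in T7+RA, 628 ± 79.6 at T0, 511 ± 39.5 in T14+RA, then 500 ± 31.5 in T7-RA and 480 ± 28.5 in T14-RA (SD, n = 3 each).

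The T14 term of Pdgfrb was -0.46 (SE 0.106, edgeR adjusted p = 0.000425), a level 1.37-fold lower than at T0. This call rested on single libraries: without T0 replicate 1 the T14 term was -0.34 (edgeR adjusted p = 0.0290), and it was also not called without T0 replicate 3, T14-RA replicate 2 or T14-RA replicate 3, nor with scaling by library size alone (-0.35, edgeR adjusted p = 0.00631), at least 10 counts in every library (-0.40, edgeR adjusted p = 0.00178) or limma on quantile-normalized values (-0.26, adjusted p = 0.166). Without RA the change from T0 was -0.33 at day 7 (edgeR adjusted p = 0.0138) and -0.39 at day 14 (edgeR adjusted p = 0.00248), both past 0.05 but not 0.001. Without T0 replicate 2 the change at day 14 passed 0.001 (-0.46, edgeR adjusted p = 0.000316). The RA term of Pdgfrb was 0.23 (SE 0.0803, edgeR adjusted p = 0.0431), with a 95% confidence interval from 0.07 to 0.39. It was 0.36 at day 7 (edgeR adjusted p = 0.0149) and 0.09 at day 14 (edgeR adjusted p = 0.701, 95% confidence interval from -0.12 to 0.30). Of 12 pericyte and smooth muscle markers, a list that includes Pdgfrb itself, 11 were in the table, and their summed level was 16445 to 17893 CPM at T0, 4736 to 6218 in T7-RA, 4218 to 4323 in T14-RA, 5787 to 6462 in T7+RA and 4828 to 5543 in T14+RA. Most of the sum was Acta2 and Tagln, which fell from means of 12684 and 2829 CPM at T0 to 2498 and 806 in T14-RA. For the T14 term 0 of the 11 were called higher, 5 were called lower (Acta2, Tagln, Cnn1, Mcam and Pdgfrb) and 6 were not called, against 17.3% of all genes called and 8.85% called lower. The median log2 T14 change was 0.11 over the 11 and 0.05 over all genes. For the RA term Mcam was called higher by 0.97 (edgeR adjusted p = 1.22e-11), Notch3 fell by 2.43 (edgeR adjusted p = 1.35e-16) and Abcc9 by 0.69 (edgeR adjusted p = 0.000748), and 8 of the 11 were not called, against 6.39% of all genes called. The part of these markers in the values of Pdgfrb was not tested.

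In 3 comparisons 0 of the 4 PDGF genes were called by edgeR, limma-voom, limma on quantile-normalized values or DESeq2. Between T14-RA and T7-RA, 1 of 4 had an unadjusted p under 0.05 in edgeR (Pdgfb), and 2.95% of all genes were called. For the difference between the RA changes of day 14 and day 7, 1 of 4 had an unadjusted p under 0.05 (Pdgfa), and 0.743% of all genes were called at an adjusted p under 0.05. Between T14+RA and T0, 3 of 4 had an unadjusted p under 0.05 and an adjusted p under 0.05 in edgeR (Pdgfa, Pdgfc and Pdgfrb, all lower), and 19.7% of all genes were called at 0.001. Comparisons with T0 share its 3 cultures, and those of the same day share their cultures without RA.

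Profiles over the 15 libraries were compared as centred log2 CPM, and the genes with the smallest root mean square difference from each PDGF gene were listed among 8378 genes with a mean of at least 10 counts. For Pdgfb they were Cmtm7 (a membrane protein of the CMTM family, 0.336), Anxa3 (annexin A3, 0.454) and Gprc5a (an orphan receptor first described as RA-inducible, 0.479), against a median difference of 1.01 over all candidates. For Pdgfa they were Ttc13 (0.165), Hs6st1 (a heparan sulfate 6-O-sulfotransferase, 0.182) and RGD1559896 (0.191), against a median of 0.525. For Pdgfc they were Ahdc1 (0.186), Smarcal1 (an annealing helicase, 0.200) and AABR07031491.2 (0.201), against a median of 0.501. For Pdgfrb they were Col5a2 (a fibrillar collagen chain, 0.0993), Ddb1 (a DNA damage binding protein, 0.104) and Ptpa (an activator of protein phosphatase 2A, 0.104), against a median of 0.405. These are distances on the log2 scale, given as a description, and the points share their libraries.

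Around the ligands and receptors, 7 lists of genes by role held 108 genes, of which 90 were in the table. For the RA term 11 of the 90 were higher and 7 lower, 20% called, against 6.39% of all genes. For the T14 term 7 were higher and 17 lower, 26.7% called against 17.3%, and for the T7 term 3 were higher and 8 lower, 12.2% called against 8.73%. The median log2 change of the 90 genes was 0.04 for RA and -0.25 for T14, beside -0.01 and 0.05 over all genes.

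Among 9 of 12 listed genes that activate, bind or cleave PDGF ligands, 1 rose and 3 fell with RA, against 6.39% of all genes called. Among those that fell, Thbs1 (thrombospondin 1) fell by 0.73 on the log2 scale (edgeR adjusted p = 1.36e-11) and Pcsk6 (a proprotein convertase) by 0.88 (edgeR adjusted p = 4.26e-07). Sparc, a matrix protein that binds PDGF, rose by 0.36 (edgeR adjusted p = 2.19e-05). In the T14 term 1 rose and 5 fell, against 17.3% of all genes called, and limma on quantile-normalized values called 1 higher and 2 lower. Plat, the tissue plasminogen activator that can cleave the CUB domain from the C chain, rose by 1.66 (edgeR adjusted p = 2.69e-09), from 37.1 ± 8.56 CPM at T0 to 106 ± 9.67 in T14-RA and 155 ± 19.4 in T14+RA (SD, n = 3 each). Thbs1 fell by 1.88 (edgeR adjusted p = 5.01e-24) and Furin, a convertase that processes the A and B chains, by 0.82 (edgeR adjusted p = 4.11e-07).

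Among the 8 of 10 listed receptor partners, 0 were called by edgeR, limma-voom, limma on quantile-normalized values or DESeq2 for the RA term, and 5 had an unadjusted edgeR p under 0.05, all lower. In the T14 term 2 fell, Cd44 (a hyaluronan receptor) by 0.88 (edgeR adjusted p = 2.07e-09) and Itgav (integrin alpha V) by 0.53 (edgeR adjusted p = 0.000439), against 17.3% of all genes called. Limma on quantile-normalized values called 0 lower, and scaling by library size alone or at least 10 counts in every library left 1. Itgav was not called between T14-RA and T0 (edgeR adjusted p = 0.00289).

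Of 36 adaptors and kinases below the receptors, 35 were in the table, and with RA 3 rose and 1 fell, against 6.39% of all genes called. Limma on quantile-normalized values called 1 higher and 1 lower for RA. Pik3r1, the regulatory subunit p85 alpha of phosphatidylinositol 3-kinase, which docks on the activated receptors, rose by 1.79 (edgeR adjusted p = 2.29e-15), with 30.6 ± 8.21 CPM in T7-RA and 35.8 ± 4.96 in T14-RA against 121 ± 10.8 in T7+RA and 109 ± 5.28 in T14+RA (SD, n = 3 each). Pik3cb, a catalytic subunit of the same kinase, rose by 2.07 (edgeR adjusted p = 1.24e-05) on only 119 counts over the 15 libraries. Map2k1 (MEK1) rose by 0.63 (edgeR adjusted p = 9.58e-06) and Mapk3 (ERK1) fell by 0.68 (edgeR adjusted p = 2.72e-08). For the T14 term 1 rose and 5 fell, near the 17.3% of all genes called in either direction, with 8.85% of all genes called lower. Among those that fell were Akt1 by 0.73 (edgeR adjusted p = 1.13e-07), Src by 0.81 (edgeR adjusted p = 4.23e-05) and Plcg1 (phospholipase C gamma 1) by 0.64 (edgeR adjusted p = 4.58e-05). Limma on quantile-normalized values called 0 higher and 0 lower for this term.

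All 19 listed brakes of receptor tyrosine kinase signalling were in the table, and 5 rose and 0 fell with RA, against 6.39% of all genes called. Their median log2 change was 0.41, beside -0.01 over all genes. At day 7 alone 5 rose with RA, with a median of 0.50 over the 19 beside -0.02 over all genes, of which 3.17% were called. At day 14 alone 1 rose (Errfi1), with a median of 0.29 beside -0.0036 over all genes, of which 4.81% were called. Limma on quantile-normalized values called 3 higher for the RA term. By the unadjusted edgeR p, 1 brake was lower at 0.05, and limma-voom and DESeq2 also called 0 lower. Errfi1, an inhibitor of the EGF receptor family, rose by 1.90 (edgeR adjusted p = 4.52e-16), with 45.9 ± 7.98 CPM in T7-RA against 195 ± 27.1 in T7+RA, and 33.4 ± 8.02 CPM in T14-RA against 104 ± 8.56 in T14+RA (SD, n = 3 each). Spry2 (Sprouty 2) rose by 1.01 (edgeR adjusted p = 3.42e-06), Lrig1 by 0.77 (edgeR adjusted p = 1.11e-06) and Dusp1, a phosphatase of MAP kinases, by 0.72 (edgeR adjusted p = 2.23e-05). In the T14 term 2 brakes rose, among them Spry2 by 1.50 (edgeR adjusted p = 6.15e-05), and 2 fell, Ptpn12 by 0.99 (edgeR adjusted p = 0.000105) and Dusp1 by 0.83 (edgeR adjusted p = 0.000124). These counts stand near the 17.3% of all genes called for that term. Limma on quantile-normalized values called 1 brake higher and 0 lower there. Of 12 of 15 listed immediate early and mitogen response genes, Fosl1 was the only gene called for the RA term, against 6.39% of all genes. It fell by 0.98 (edgeR adjusted p = 0.000402), a call that DESeq2 and limma on quantile-normalized values did not make. Ier2 and Ier3 fell in the T14 term by 1.20 (edgeR adjusted p = 7.79e-05) and 1.10 (edgeR adjusted p = 8.58e-05). They were the only 2 of the 12 called there, against 17.3% of all genes called in either direction and 8.85% called lower. Limma on quantile-normalized values called 0 of the 12 for this term.

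The VEGF genes are the nearest relatives of the PDGF ligands, and 5 of 9 listed ligands and receptors were in the table. With RA 2 rose and 1 fell, against 6.39% of all genes called. Vegfc, the lymphatic growth factor, rose by 1.53 (edgeR adjusted p = 5.9e-09) and Vegfa by 0.60 (edgeR adjusted p = 1.03e-05), and the receptor gene Flt1 fell by 1.30 (edgeR adjusted p = 1.6e-06). In the same model's T14 term Vegfd rose (edgeR adjusted p = 1.09e-07) from 0.460 ± 0.796 CPM at T0 to 19.8 ± 2.02 in T14-RA and 39.7 ± 1.89 in T14+RA (SD, n = 3 each). Its T0 level was below the floor of 3 counts, so the size of that change is uncertain. Vegfb rose by 1.09 (edgeR adjusted p = 8.32e-05). Of 7 listed genes of the other class III receptors and their ligands, 2 were in the table. Kitlg, the ligand of KIT, rose in the T14 term by 0.99 (edgeR adjusted p = 4.07e-06) and fell with RA by 0.75 (edgeR adjusted p = 6.11e-07), and Csf1 fell in the T14 term by 0.79 (edgeR adjusted p = 2.55e-05).

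**Figure D4:**
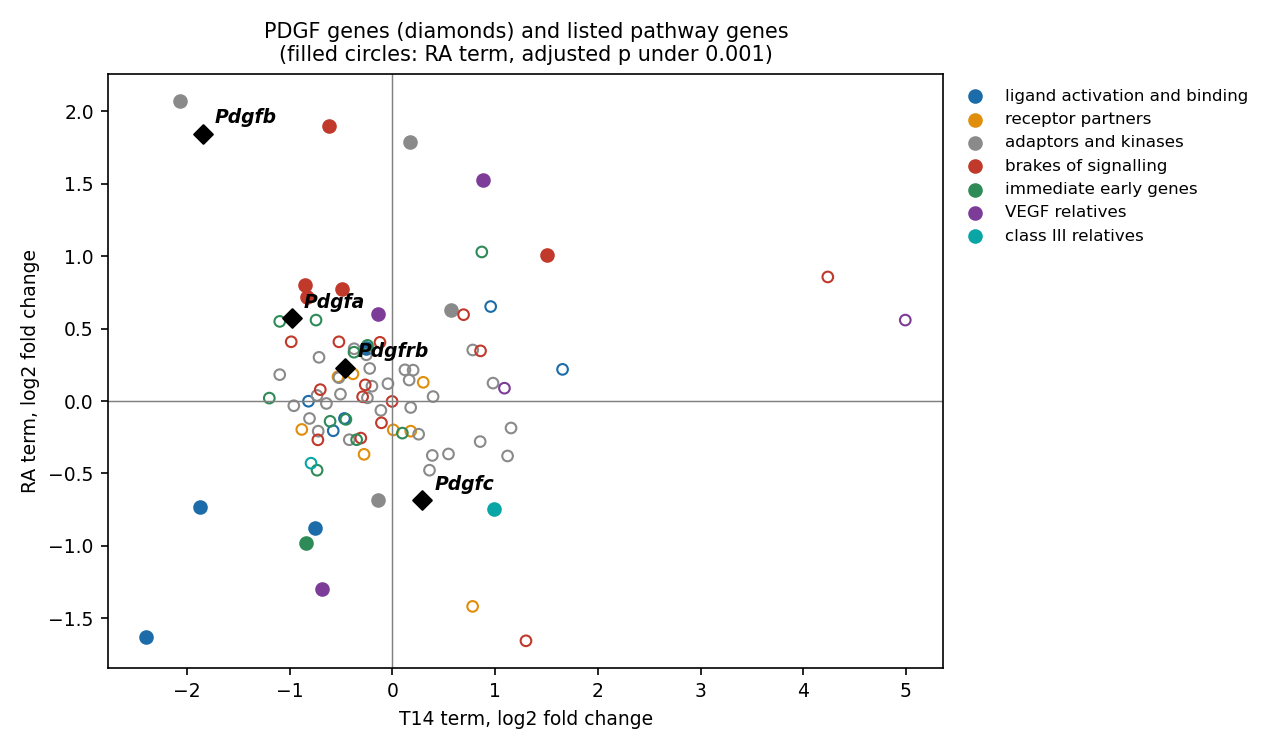
Log2 fold change of the RA term (vertical axis) against that of the T14 term (horizontal axis) for the 4 PDGF genes (black diamonds) and the 90 listed genes of the pathway and its relatives (circles coloured by list), both from the same edgeR fit; filled circles have an adjusted p under 0.001 for RA. Pdgfb lies at -1.85 for T14 and 1.85 for RA, and Pdgfc at 0.29 and -0.69.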

How the data were processed

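Poly(A) mRNA libraries of 15 cultures, made with a kit that keeps strand, were sequenced on a MiSeq. The authors trimmed the reads, mapped them with HISAT2 (build Rnor_6.0 in the submitters' processing notes) and counted them per gene with featureCounts. Versions, annotation release and strand setting of the counting are not given in the sources used here, so overlapping genes on opposite strands may share reads. The deposited values are raw counts, not normalized, and the table keeps genes whose total over all libraries exceeds 20. The deposited gene size, in bases, served only for levels per kilobase, and how it was measured is not given in the sources used here. Groups and replicate numbers came from the labels. The sources call the cultures biological replicates and do not say how separately they were grown, so p-values measure the spread between these cultures. No 2 libraries of a group agreed within sampling noise (smallest chi-square per gene 1.07, p = 2.34e-07), and all 15 were kept. Intervals cover the fit only, and the floor of 3 counts covers counting error only.

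Counts were fitted in edgeR 4.0.16 (R 4.3.3) with TMM factors, robust quasi-likelihood dispersions and Benjamini-Hochberg adjustment over all genes, as an additive model with the study's formula and threshold, and as 5 group means. The biological coefficient of variation was 9.81% and 8.84%. Standard errors were taken from the F statistic. The contrasts of T7+RA and T14+RA with T0 were added after the data were seen. Log2 CPM used a prior count of 2. Alternatives were limma-voom and limma on quantile-normalized log2(count + 1) (limma 3.58.1), DESeq2 1.42.0, other scalings, filters and thresholds, a replicate block, fits of the 2 groups compared alone and each library left out. The planned ratios of Pdgfrb to Pdgfra and of Pdgfd to Pdgfc could not be formed. Statistics were tested on simulated data. Named genes were the PDGF genes in the table, up to 4 called genes per list with the lowest p for RA and for T14, and the 3 nearest profiles of each PDGF gene. The PDGF genes, the lists and the markers were chosen with earlier results of these data known. Results for 3 listed genes are not reported here.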

Additional observations from a re-analysis of the deposited data

Results flagged for a closer look

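Among the 90 listed genes of the pathway and its relatives, 2 differed between the days in their response to RA by a test of the difference itself, the RA change of day 14 minus that of day 7 in edgeR at an adjusted p under 0.05, and 0.743% of all genes did so. Of the muscle markers, Myod1 (-1.04, edgeR adjusted p = 0.0369) and Mymk (-1.34, edgeR adjusted p = 0.0322) did so too. Dusp6, a phosphatase of ERK, had a difference of -1.38 (edgeR adjusted p = 0.0221). Its RA change was 0.96 at day 7 (edgeR adjusted p = 0.000822), with 49.7 CPM in T7-RA and 98.2 in T7+RA, and -0.43 at day 14 (edgeR adjusted p = 0.371), with 48.6 CPM in T14-RA and 35.6 in T14+RA. Ccnd1, which encodes cyclin D1, had a difference of -0.87 (edgeR adjusted p = 7.34e-06). Its RA change was 0.81 at day 7 (edgeR adjusted p = 1.44e-10), with 847 CPM in T7-RA and 1490 in T7+RA, and -0.06 at day 14 (edgeR adjusted p = 0.811), with 952 CPM in T14-RA and 912 in T14+RA.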

How the results depend on the processing

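Of 933 values of the PDGF genes under alternatives, 852 kept direction and call, 73 lost the call, 7 gained it and 1 turned direction, the change of Pdgfrb with RA at day 14, -0.0046 in limma on quantile-normalized values. PDGF genes called numbered, by comparison, as follows. T7 term: 0 with quantile normalization, DESeq2 and library size only. T14 and RA terms: 1 each with quantile normalization and with at least 10 counts in every library, which leaves out Pdgfb, and 2 each with library size only. RA term: also 2 with limma-voom or DESeq2, and 4 at a threshold of 0.05. T7-RA against T0: 2 at 0.05 and 0 with quantile normalization. T14-RA against T0: 3 at 0.05, 1 with limma-voom, library size only, the count filter or the 2 groups alone, and 0 with quantile normalization or DESeq2. T7+RA against T0: 0 with quantile normalization or DESeq2. T14+RA against T0: 3 at 0.05. RA at day 7: 3 at 0.05 or with the 2 groups alone, 0 with quantile normalization, and 1 with DESeq2 or the count filter. RA at day 14: 2 at 0.05, and 0 with limma-voom, quantile normalization or DESeq2. T14+RA against T7+RA: 2 at 0.05, and 0 with quantile normalization, DESeq2 or the count filter. Leaving out 1 library gave 0 to 1 for T7, 2 to 3 for T14, 1 to 3 for RA, 0 to 1 for T7-RA and 0 to 2 for T14-RA against T0, 1 to 2 and 0 to 2 for RA at days 7 and 14, and 0 to 1 for T14+RA against T7+RA; the log2 ratio of Pdgfb to Pdgfa changed by 1.08 to 1.42. The RA and T14 terms of Pdgfb were called in every fit run that included it. Of the 90 listed genes, quantile normalization called 2 for T7, 7 for T14 and 10 for RA, and the count filter 12 for RA, beside 11, 24 and 18. With a replicate block, RA at day 14 called 2 (Pdgfb, adjusted p = 0.000888, was gained), and T14-RA against T0 called 3 (Pdgfrb, adjusted p = 0.000806, was gained). The labels do not say whether the shared numbers pair the cultures, and the main fits did not pair them. Same-numbered deviations correlated by 0.03 on average and 0.19 at most, beside an average of -0.02 for other numbers. Of 30 same-numbered pairs 5 were over 0.1, and 8 of 15 libraries correlated best with their own number. Of the 4 PDGF genes, Pdgfb had the fewest counts in sum and the widest standard errors.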
